A study of Homo sapiens with 4 samples.

Results

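The genes described here are the matrix metalloproteinases (MMP), their tissue inhibitors (TIMP), the membrane-anchored ADAM proteins and the secreted ADAMTS proteases, measured in Hs578T cells with and without knockdown of TLN1, the gene for talin-1. Members were all genes with a symbol of MMP, TIMP, ADAM or ADAMTS followed only by digits and at most 1 letter, a row in the deposited log2 CPM table and no pseudogene annotation. This gave 40 of the 16137 genes of that table, namely 11 MMP, 3 TIMP, 12 ADAM and 14 ADAMTS genes. The study holds 4 samples. In 2 of them the cells received GFP and a non-targeting control RNA (SCR), and in the other 2 GFP and an siRNA against TLN1 (siTLN1), at 1.6 µM, with collection after 48 h. Hs578T is an established human breast carcinoma line, so both groups model 1 line after a transient transfection, and how many siRNA sequences were used is not given in the sources used here.

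MMPs are zinc endopeptidases that cut collagens, other matrix proteins and cell-surface proteins, and most are secreted or displayed as inactive proforms. TIMPs block their active site, and TIMP3, which binds to the matrix, also blocks several ADAM and ADAMTS enzymes. ADAM proteins span the membrane and, where their zinc site is complete, release the outer parts of growth factors and receptors, whereas ADAMTS proteases carry thrombospondin repeats and cut proteoglycans, procollagens and other matrix proteins. In carcinoma cells of mesenchymal character these enzymes are studied for their part in matrix turnover and invasion.

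Each group holds 2 libraries, called a and b here after a number that recurs in both groups of the count columns, and the series describes the 2 samples of a group as biological replicas. Total counts ran from 31854322 to 46353297 per library. TLN1 read 868 and 874 CPM (counts scaled to a common library size, as in the deposited log2 CPM values) in SCR. Knockdown left 51.9 and 44.8 CPM, which is 5.55% of the SCR mean. The source label speaks of epithelial cells. All 8 markers listed for a mesenchymal carcinoma line had a mean of 1 CPM or more over the 4 libraries (2 of them, CDH2 and SPARC, fell in siTLN1). That list includes KRT18, which is a keratin of luminal epithelium and was at 103.9 to 130.5 CPM. Of 8 other luminal and epithelial markers, GATA3 and FOXA1 had a mean of 1 CPM or more, and ERBB3 reached 1.098 CPM in 1 library. The epithelial adhesion genes CDH1 and EPCAM reached at most 0.851 and 0.143 CPM. The summed level of these 8 luminal and epithelial markers, without KRT18, was 14.2 to 14.9 CPM in SCR and 16.7 to 18.2 CPM in siTLN1. For 4 leukocyte markers the sums were 10.8 to 10.9 against 9.28 to 9.84 CPM, with LYZ at 0 in every library. Most of this was CSF1R, at 9.37 and 9.47 CPM in SCR and 8.18 and 8.72 CPM in siTLN1. For 4 endothelial markers the sums were 5.34 to 6.16 against 4.61 to 5.06 CPM. Most of this was PECAM1, at 4.46 and 3.76 CPM in SCR and 2.85 and 3.30 CPM in siTLN1. Neither CSF1R nor PECAM1 passed the test described below. The part of these shifts in the results below was not tested. In such bulk RNA, fewer cells with a transcript and less of it per cell cannot be told apart.

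Of the 40 members, 10 passed the test, 7 of them higher and 3 lower in siTLN1. Genes were tested by edgeR's quasi-likelihood method, adjusted after Benjamini and Hochberg over all 16137 genes, and a member passed with an adjusted p under 0.05. Over all genes tested, 6.07% passed (2.30% higher and 3.77% lower), against 25% of the members. The median log2 fold change was 0.17 over the members and 0.0033 over all genes. The genes that rose were ADAM19, MMP11 and 5 ADAMTS genes (ADAMTS5, ADAMTS10, ADAMTS14, ADAMTS15 and ADAMTS16), and those that fell were ADAM23, ADAMTS2 and ADAMTS9. By family, 7 of 14 ADAMTS, 2 of 12 ADAM, 1 of 11 MMP and 0 of 3 TIMP genes passed. The count rested on siTLN1 library a: without it 2 members passed, ADAM19 and ADAMTS9, while 2.15% of all genes did. Without a filter on low counts 5 members passed, as ADAM23, ADAMTS2, ADAMTS5, ADAMTS10 and MMP11 did not, while 2.03% of all genes did.

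**Figure D1:**
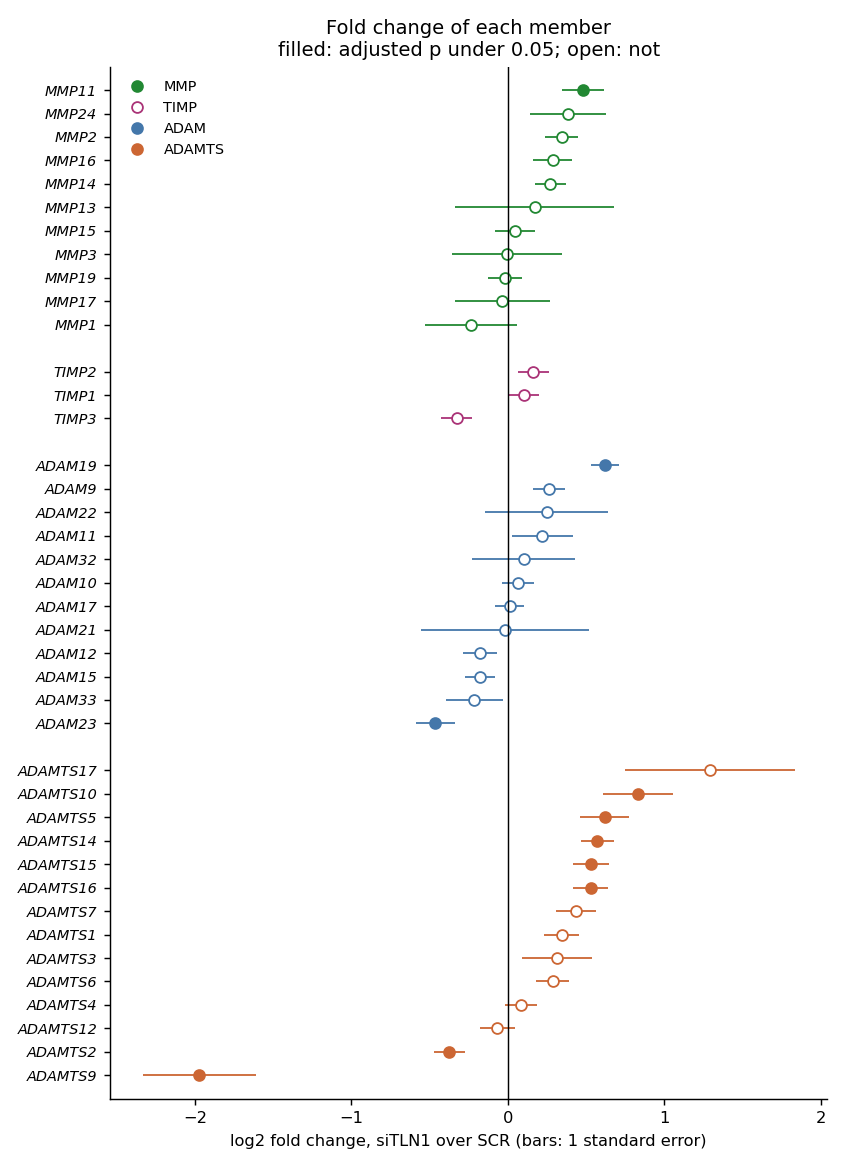
Log2 fold change of siTLN1 over SCR for the 40 members, by family, from edgeR's quasi-likelihood fit; bars are 1 standard error and filled circles passed an adjusted p of 0.05. Most ADAMTS circles lie to the right of 0, and ADAMTS9 stands far to the left at −1.97.

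The ADAMTS family held most of the calls, with 7 in the main fit, 4 with DESeq2 and 4 without a filter on low counts. Of its 14 members, 10 had both siTLN1 libraries above both SCR libraries and 2 had both below, a separation without overlap that 48.4% of all genes tested showed in either direction (23.9% higher and 24.6% lower). The median log2 fold change of the family was 0.39. The genes are taken below by substrate, and compared with each other only as CPM per kilobase of exon, since longer transcripts give more reads.

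Among the proteoglycan-cutting enzymes (ADAMTS1, ADAMTS4, ADAMTS5, ADAMTS9 and ADAMTS15), 2 rose and 1 fell. ADAMTS5, a main enzyme of aggrecan breakdown, was at 120 and 96.8 CPM in SCR and at 196 and 138 CPM in siTLN1 libraries a and b. The siTLN1 libraries lay above both controls but differed more from each other than those did. On the log2 scale this is 0.62 ± 0.16 (SE, edgeR adjusted p = 0.0432), and without siTLN1 library a it was 0.35 (adjusted p = 0.262). DESeq2 gave an adjusted p of 0.235 for it. ADAMTS15, which cuts versican and aggrecan, was at 21.2 and 26.4 CPM in SCR and at 34.7 and 34.1 CPM in siTLN1. This is a log2 fold change of 0.53 ± 0.11 (SE, edgeR adjusted p = 0.0105), with adjusted p values of 0.0582 if SCR library a and 0.0822 if siTLN1 library a is left out.

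ADAMTS1, which cuts versican, was the ADAMTS gene with the highest level per kilobase, at 54.4 CPM per kilobase in SCR and 69.0 in siTLN1. Its libraries read 396 and 371 CPM in SCR and 542 and 431 CPM in siTLN1, with no overlap. The log2 fold change of 0.34 did not pass (edgeR adjusted p = 0.0852), and it was 0.50 (adjusted p = 0.0116) without siTLN1 library b but 0.17 (adjusted p = 0.660) without siTLN1 library a. ADAMTS1 and ADAMTS5 are neighbours on chromosome 21 (GRCh38, chr21:26835755-26967088, both on the minus strand), with 72512 bases between them. In both genes siTLN1 library a was the highest of the 4 libraries. The same held for many members elsewhere in the genome, such as ADAM9, ADAM19, ADAMTS16 and MMP14. ADAMTS4, a further aggrecan-cutting enzyme, lay between 31.4 and 35.5 CPM in all libraries and its groups overlapped.

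ADAMTS9, which also cuts proteoglycans, had the largest fold change of all members, downward from a low level. Its raw counts were 47 and 35 in SCR and 11 and 15 in siTLN1, or 1.48 and 1.005 CPM against 0.302 and 0.319 CPM. On the log2 scale the change was −1.97 ± 0.36 (SE, edgeR adjusted p = 0.00331). The call was kept in each fit that left out 1 library, with log2 fold changes from −2.23 to −1.68, but DESeq2 gave it no adjusted p.

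The 3 procollagen N-propeptidases, which trim the amino end of fibrillar procollagens, did not move together. ADAMTS2 fell, from 186 and 170 CPM in SCR to 145 and 130 CPM in siTLN1, a log2 fold change of −0.37 ± 0.10 (SE, edgeR adjusted p = 0.0284). Leaving out SCR library a gave ADAMTS2 an adjusted p of 0.127, siTLN1 library a 0.0724 and siTLN1 library b 0.224. ADAMTS14 rose, from 23.2 and 25.1 CPM to 37.7 and 34.0 CPM, a log2 fold change of 0.57 ± 0.10 (SE, edgeR adjusted p = 0.00329, and 0.0722 without siTLN1 library a). Both genes kept their groups apart in every library, in opposite directions. ADAMTS2 stayed the more abundant, at 15.7 CPM per kilobase in siTLN1 against 6.44 for ADAMTS14. The third, ADAMTS3, was at 1.51 and 2.01 CPM in SCR and 2.03 and 2.34 CPM in siTLN1 and did not pass (edgeR adjusted p = 0.487).

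Promoter windows of ADAMTS2 and ADAMTS14 are shown because these related genes changed in opposite directions, and that of ADAM19 because it had the smallest adjusted p of all members. Each line gives the 250 bases before the transcription start from RefSeq (GRCh38.p14), 5′ to 3′ on the gene's strand, with GC box letters (GGGCGG or its reverse complement) in capitals. The windows are chr10:70672256-70672505 on the plus strand for ADAMTS14, chr5:179345462-179345711 on the minus strand for ADAMTS2 and chr5:157575776-157576025 on the minus strand for ADAM19.
ADAMTS14: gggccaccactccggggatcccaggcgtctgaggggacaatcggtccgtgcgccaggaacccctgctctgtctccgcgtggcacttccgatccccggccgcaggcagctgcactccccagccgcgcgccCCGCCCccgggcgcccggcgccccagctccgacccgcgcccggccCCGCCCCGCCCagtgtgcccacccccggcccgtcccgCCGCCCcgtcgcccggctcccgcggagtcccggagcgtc
ADAMTS2: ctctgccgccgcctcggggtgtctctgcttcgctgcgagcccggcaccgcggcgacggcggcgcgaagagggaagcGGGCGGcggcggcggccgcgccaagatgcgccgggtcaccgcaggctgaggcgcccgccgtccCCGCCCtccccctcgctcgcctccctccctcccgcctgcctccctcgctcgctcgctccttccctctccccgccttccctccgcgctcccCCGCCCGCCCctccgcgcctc
ADAM19: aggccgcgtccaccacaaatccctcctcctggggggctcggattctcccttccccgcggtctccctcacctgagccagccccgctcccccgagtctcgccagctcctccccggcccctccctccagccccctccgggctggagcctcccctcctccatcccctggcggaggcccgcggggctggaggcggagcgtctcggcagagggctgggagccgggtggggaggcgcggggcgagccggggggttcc
The windows of ADAMTS14 and ADAMTS2 had nearly the same composition, with 80.4% and 80.0% G or C and 35 and 40 CpG dinucleotides. Each held 4 GC box matches, some of them overlapping. ADAM19 had 76.4% G or C, 21 CpG dinucleotides and no match.

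RefSeq promoter windows (250 bases before to 50 after the start) were at hand for 22 of the 40 members. Of the members that passed, windows of ADAMTS5, ADAMTS9, ADAMTS15 and ADAMTS16 are missing. Among the MMPs only MMP11, MMP14, MMP15 and MMP24 had a window. MMP1, MMP2, MMP3 and MMP13, for example, were not searched, so the word counts below do not describe them. The GC box (GGGCGG, either strand) occurred in 19 of the 22, and in 68.6% of the 11365 windows of tested genes. The AP-1 word TGAGTCA (either strand) occurred in 0 of 22 and in 3.36% of the windows of tested genes, and the TATA word TATAAA (sense strand) in 1 of 22, that of ADAM21, and in 3.801%. The median member window held 31.5 CpG dinucleotides, and the median window of tested genes 26. A match describes these letters only.

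The 4 remaining ADAMTS genes each had both siTLN1 libraries above both controls, and 2 passed. ADAMTS16 rose from 15.6 and 14.9 CPM to 23.4 and 20.6 CPM, a log2 fold change of 0.53 ± 0.11 (SE, edgeR adjusted p = 0.00955, and 0.171 without siTLN1 library a). ADAMTS10, which binds fibrillin microfibrils, rose from 1.29 and 1.32 CPM to 2.28 and 2.36 CPM, a log2 fold change of 0.83 ± 0.22 (SE, edgeR adjusted p = 0.0363). Its raw counts were 41 and 46 against 83 and 111. The call of ADAMTS10 was lost with any library left out, at adjusted p values from 0.0898 to 0.134, and with DESeq2 (0.144). ADAMTS17 had 5 and 7 raw counts in SCR and 22 and 15 in siTLN1, a log2 fold change of 1.29 that did not pass (edgeR adjusted p = 0.188). ADAMTS6 was at 31.3 and 29.7 CPM against 40.3 and 34.1 CPM and did not pass (adjusted p = 0.138).

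ADAMTS7 and ADAMTS12 both cut cartilage oligomeric matrix protein. ADAMTS7 was at 11.01 and 12.7 CPM in SCR and 17.5 and 14.6 CPM in siTLN1, with a log2 fold change of 0.43 just outside the threshold (edgeR adjusted p = 0.0558). It passed without SCR library b (adjusted p = 0.0143) and without siTLN1 library b (adjusted p = 0.0262), but not without SCR library a (0.34, adjusted p = 0.185) or siTLN1 library a (0.30, adjusted p = 0.472). Its level is uncertain, since 3 annotated pseudogenes are copies of it and their reads may be split from it, although they held only 19 to 30 counts in all per library. ADAMTS12 overlapped between groups, at 284 and 231 CPM in SCR and 263 and 228 CPM in siTLN1, and its log2 fold change of −0.068 turned positive when SCR library a (0.092) or siTLN1 library b (0.035) was left out.

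**Figure D2:**
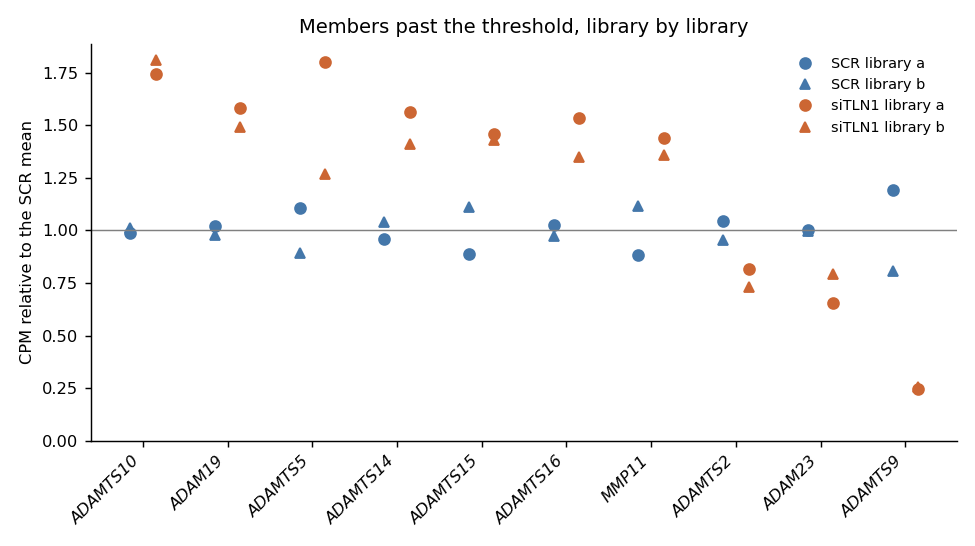
CPM of the 10 members that passed, each library divided by the mean of the SCR libraries (circles library a, triangles library b; the line marks 1). All siTLN1 symbols lie outside the SCR symbols of the same gene, with ADAMTS5 showing the widest gap between its siTLN1 libraries (196 and 138 CPM).

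Of the MMPs, those with a high level were the gelatinase MMP2 and the membrane-type enzyme MMP14, which activates pro-MMP2 at the cell surface with the help of TIMP2. MMP14 had 201 CPM per kilobase in SCR and 243 in siTLN1, and MMP2 191 and 243. Together they made up 95.2% to 96.1% of the summed MMP level per kilobase in every library. MMP14 read 864 and 931 CPM in SCR and 1099 and 1066 CPM in siTLN1, a log2 fold change of 0.27 ± 0.10 (SE, edgeR adjusted p = 0.131). MMP2 read 831 and 970 CPM in SCR and 1127 and 1156 CPM in siTLN1, a log2 fold change of 0.34 ± 0.11 (SE, edgeR adjusted p = 0.0668). Neither passed, although in both the siTLN1 libraries lay above the controls. MMP2 did pass with DESeq2 (adjusted p = 0.0230) and with total counts as the only scaling (adjusted p = 0.0459). In limma-trend with a block for the replicate numbers of the labels, MMP2 (adjusted p = 1.22e-05) and MMP14 (adjusted p = 0.000657) passed. In that fit 22.6% of all genes passed, against 6.07% in the main fit. No label states that the replicate numbers mark a shared preparation.

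MMP11 (stromelysin-3), an MMP activated inside the cell by furin and known from breast tumour stroma, alone of the MMPs passed. It was at 8.15 and 10.3 CPM in SCR and 13.3 and 12.5 CPM in siTLN1. On the log2 scale the change was 0.48 ± 0.13 (SE, edgeR adjusted p = 0.0419), and 4.23% of its exon bases also lie in exons on the opposite strand. Leaving out SCR library a gave an adjusted p of 0.238, siTLN1 library a 0.261 and siTLN1 library b 0.0656, and DESeq2 gave 0.0688.

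The other membrane-type MMPs did not pass. MMP16 was at 103 and 87.2 CPM in SCR and 130 and 102 CPM in siTLN1, which overlap (adjusted p = 0.214), and the call turned on single libraries. It passed with SCR library a (0.0267) or siTLN1 library b (0.0279) left out, but its log2 fold change of 0.29 was 0.17 (adjusted p = 0.566) without SCR library b and 0.097 (adjusted p = 0.846) without siTLN1 library a. MMP15, MMP17 and MMP24 had log2 fold changes of 0.047, −0.036 and 0.38, and 22.1% of the exon bases of MMP24 are shared with the opposite strand. MMP19, a secreted MMP, stayed between 19.1 and 20.7 CPM in all libraries. Its log2 fold change of −0.017 turned positive without SCR library b (0.023) or siTLN1 library a (0.035), and 17.4% of its exon bases are shared with the opposite strand.

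The MMP cluster of chromosome 11 (GRCh38, chr11:102520508-102955732) was nearly silent. It holds 9 MMP genes, of which MMP1, MMP3 and MMP13 are members, and no gene of it exceeded 52 counts in a library. The interstitial collagenase MMP1 had 32 and 43 counts in SCR and 28 and 52 in siTLN1, and the stromelysin MMP3 had 28 and 22 against 35 and 27. Groups overlapped for MMP1, MMP3 and MMP13, and that of MMP1 was −0.24 ± 0.29 (SE) on the log2 scale, so changes of the size seen for MMP11 were not detectable there. The related gelatinase MMP9 on chromosome 20 is no member and had 2 and 5 counts in SCR and 3 and 9 in siTLN1.

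The 3 TIMP genes of the table were among the most abundant members, and none passed. TIMP3 was at 1106 and 1153 CPM in SCR and 872 and 926 CPM in siTLN1, with no overlap, a log2 fold change of −0.33 ± 0.10 (SE, edgeR adjusted p = 0.0628). With DESeq2 TIMP3 passed (adjusted p = 0.0155), as it did in limma-trend with the replicate block (adjusted p = 2.76e-05). In the fit with the block, 22.6% of all genes passed. TIMP2 was at 470 and 435 CPM in SCR and 534 and 479 CPM in siTLN1, a log2 fold change of 0.16 (adjusted p = 0.402). Exons on the opposite strand cover 6.52% of its exon bases. TIMP1 overlapped between groups, at 174 and 194 CPM against 193 and 202 CPM (adjusted p = 0.606).

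Summed per kilobase, the MMP members reached 389 and 433 CPM per kilobase in SCR and 508 and 504 in siTLN1. The TIMP members reached 444 and 462 in SCR and 418 and 426 in siTLN1. The ratio of the MMP sum to the TIMP sum was 0.876 and 0.938 in SCR and 1.22 and 1.18 in siTLN1. It was below 1 in both controls and above 1 in both knockdown libraries, and it does not depend on how libraries are scaled to each other. Its absolute value does depend on the exon lengths used, so a value of 1 does not mark equal amounts of enzyme and inhibitor. This ratio was formed after its parts were seen and carries no test. TIMP3 alone made up 54.1% and 54.3% of the TIMP sum in SCR and 45.4% and 47.2% in siTLN1.

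**Figure D3:**
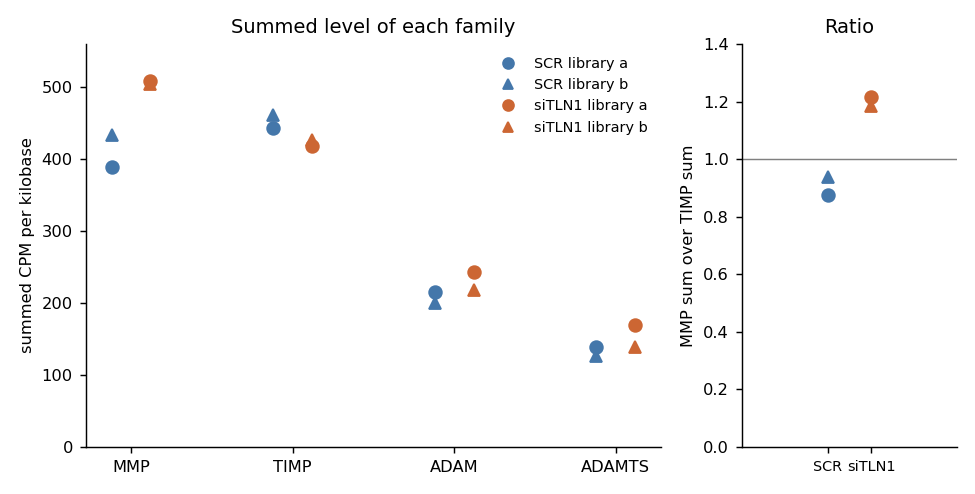
Left, summed CPM per kilobase of exon of each family in the 4 libraries; right, the MMP sum divided by the TIMP sum, with a line at 1. The siTLN1 MMP sums (508 and 504) lie above the SCR sums (389 and 433), and the ratio is 1.22 and 1.18 against 0.876 and 0.938.

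Among the ADAMs with a complete zinc site, ADAM19 rose. ADAM19, a protease that releases neuregulins, was at 128 and 123 CPM in SCR and 199 and 188 CPM in siTLN1. Replicates were close and the groups lay far apart, with a log2 change of 0.62 ± 0.092 (SE, edgeR adjusted p = 0.000559). It passed in all 4 fits that left out 1 library, with log2 fold changes from 0.58 to 0.66, and in every other setting tried. Its gene lies at chr5:157395534-157575775 (GRCh38, minus strand), and 0.805% of its exon bases are shared with the opposite strand.

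The ADAM with the highest level, ADAM9, was at 769 and 720 CPM in SCR and 945 and 838 CPM in siTLN1, with no overlap and an edgeR adjusted p of 0.156. ADAM12, known from muscle cell fusion and from breast carcinoma, overlapped between groups, at 534 and 458 CPM against 468 and 408 CPM. ADAM15 was lower without overlap, at 82.5 and 92.4 CPM in SCR and 79.1 and 75.4 CPM in siTLN1, but did not pass (adjusted p = 0.323). The main sheddases of Notch and TNF did not pass and overlapped between groups. ADAM10 had a mean of 193.8 CPM in SCR and 202.3 in siTLN1, a log2 value of 0.062 ± 0.10 (SE), and ADAM17 had 65.1 and 65.6 CPM, a value of 0.011 ± 0.094 (SE). Opposite-strand exons cover 14.4% of the exon bases of ADAM17. ADAM33 was at 4.18 and 4.80 CPM in SCR and 4.48 and 3.341 CPM in siTLN1 and did not pass (adjusted p = 0.572).

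Of the 4 ADAM members that lack a complete zinc site, ADAM23 fell. This protein acts in cell adhesion, as a ligand of integrins, rather than as a protease. It was at 14.2 CPM in both SCR libraries and at 9.26 and 11.2 CPM in siTLN1, a log2 fold change of −0.46 ± 0.13 (SE, edgeR adjusted p = 0.0386). The adjusted p was 0.0558 without SCR library b, 0.399 without siTLN1 library a and 0.0675 with DESeq2. ADAM11, ADAM22 and ADAM32 were at low levels (at most 3.46 CPM in a library), and their log2 fold changes of 0.22, 0.25 and 0.10 did not pass.

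**Figure D4:**
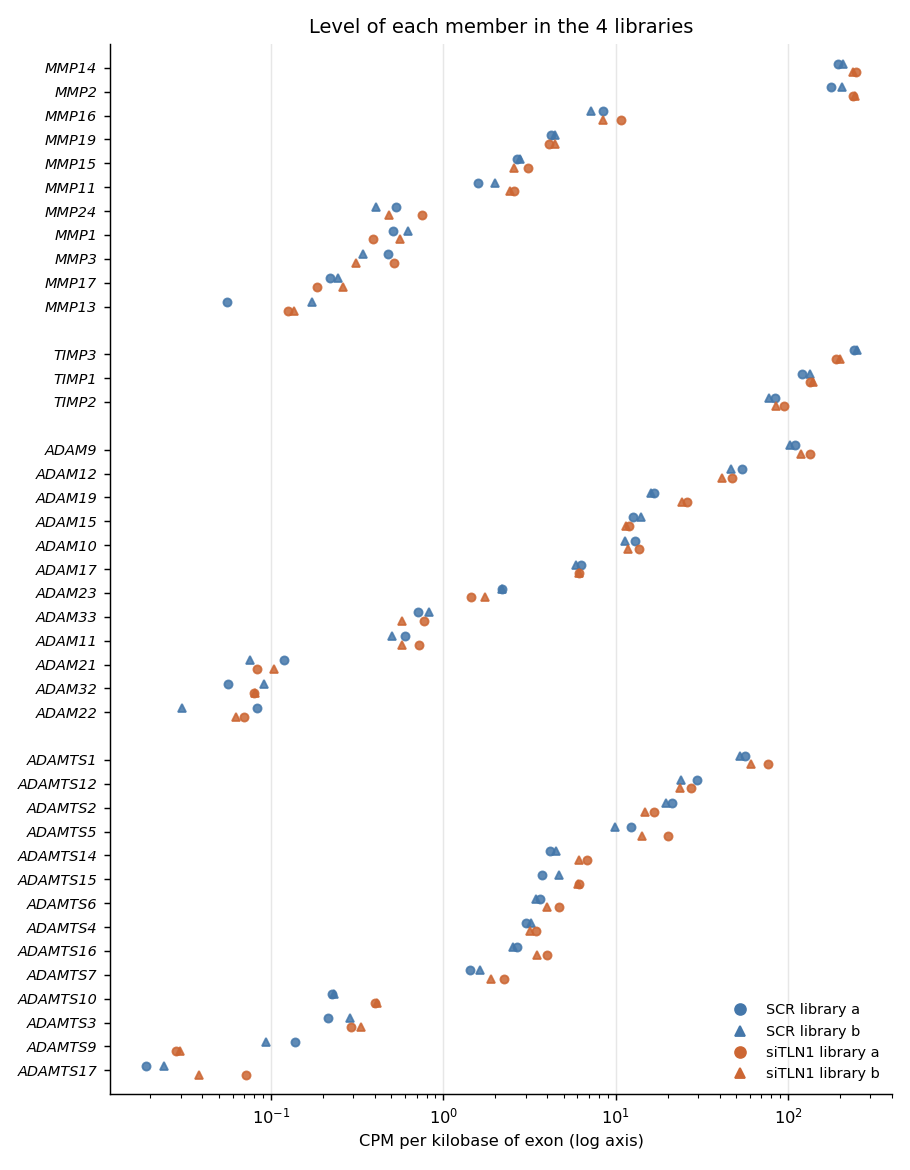
CPM per kilobase of exon (log axis) of the 40 members in the 4 libraries, by family and in order of level. MMP14, MMP2 and TIMP3 have SCR means of 201, 191 and 245 CPM per kilobase, while ADAMTS17 has the lowest SCR values.

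Levels spanned a wide range within each protease family. In SCR the 5 members with the highest level per kilobase were TIMP3 (245 CPM per kilobase), MMP14 (201), MMP2 (191), TIMP1 (127) and ADAM9 (106). TIMP3 ranked 87 and MMP14 117 among the 16137 genes. ADAM9 was followed in its family by ADAM12 (50.3) and ADAM19 (16.3), and in siTLN1 the value of ADAM19 was 25.1. ADAMTS1 (54.4) was followed by ADAMTS12 (26.8), ADAMTS2 (20.3) and ADAMTS5 (11.1), and in siTLN1 ADAMTS5, at 17.1, lay above ADAMTS2, at 15.7. At a mean of 5 CPM or more, 8 of 26 members passed (30.8%), against 7.84% of the 10486 genes at that level.

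The 7-base word GACAACA was looked up in the transcripts because genes that hold it were lower more often in these data, a pattern known before the members were chosen. It occurs once in the TLN1 coding sequence. Of 12887 protein-coding genes tested, 949 hold it in the 3′ UTR, and 16.8% of these were called lower, against 2.87% of the 10066 genes without it in coding sequence or 3′ UTR. Among 321 genes with 2 or more copies in the coding sequence only, 9.35% were called lower. These shares, and the members' fold changes below, come from the data in which the pattern was seen, so neither is a separate test. Sequence length, which affects how often a word occurs, was not accounted for. For each gene the GENCODE 29 transcript whose coding sequence is longest was read.

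ADAMTS9 and ADAMTS2 are the 2 members with several coding copies, 5 and 3, and both fell. The coding sequence of ADAMTS9, at 5808 bases, is the longest of all members. TIMP3 has 2 copies and ADAM12 has 1 in the 3′ UTR, and both had negative log2 fold changes that did not pass (−0.33 and −0.18). The sites are shown with 10 bases on each side, 5′ to 3′ on the gene's strand, the word in capitals, and the GRCh38 position of the word.
TLN1 site 1, chr9:35706037-35706043: tagaggacctGACAACAaccctcaacg
ADAMTS9 site 1, chr3:64658645-64658651: taataagacgGACAACAcaagagaaaa
ADAMTS9 site 2, chr3:64658561-64658567: ggtggtggcaGACAACAgaatggtttc
ADAMTS9 site 3, chr3:64655656-64655662: ttaatgctcaGACAACAttaaaaaact
ADAMTS9 site 4, chr3:64651138-64651144: gcctcatgatGACAACAacaaatgtaa
ADAMTS9 site 5, chr3:64551002-64551008: gtgtgtggatGACAACAaaaacgaggt
ADAMTS2 site 1, chr5:179132828-179132834: gtgcggagggGACAACAgccactgcaa
ADAMTS2 site 2, chr5:179128037-179128043: gaatgtcgacGACAACAacgtcctgga
ADAMTS2 site 3, chr5:179125083-179125089: gccgctacacGACAACAccacccgctc
TIMP3 site 1, chr22:32861196-32861202: aaaagcagcaGACAACAcactgtagag
TIMP3 site 2, chr22:32862687-32862693: aggtggatgtGACAACAacttccaaat
ADAM12 site 1, chr10:126015778-126015784: gaagacaattGACAACAgttacataat
A further 7 members hold 1 coding copy (ADAM17, ADAM22, ADAM32, ADAMTS3, ADAMTS7, MMP16 and MMP17). None of them was called and 1 had a negative fold change. Of all 1551 genes with 1 coding copy, 5.61% were called lower and 2.26% higher, so 0 of 7 is near the background. The 7 members that rose hold no copy in the chosen transcript, like 10066 of the 12887 genes, although 1 of 2 coding transcripts of ADAMTS16 has it in its 3′ UTR, as do 4 of 8 of ADAM17 and 1 of 4 of ADAMTS17. ADAM23, which fell, holds none. The part of the word in these changes was not tested.

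Genes that act on or with these proteases were taken from a list of 47 activators, inhibitors and partners, of which 36 were tested. Of these, 3 rose and 4 fell (19.4%, against 6.07% of all genes), and the median log2 fold change was −0.018. This list and that of substrates below were chosen with earlier results of these data known. Their shares are therefore not independent of those results, and the genes were not matched by level. PLAU, the urokinase that turns plasminogen into the MMP activator plasmin, rose from 385 and 379 CPM to 487 and 518 CPM (log2 fold change 0.40, edgeR adjusted p = 0.0188). The call of PLAU was lost without SCR library a (0.0590), SCR library b (0.101), siTLN1 library a (0.0698) or siTLN1 library b (0.106). PLAT, the tissue-type activator, fell from 58.9 and 77.1 CPM to 40.0 and 46.5 CPM (log2 fold change −0.65, edgeR adjusted p = 0.00914, and 0.0679 without siTLN1 library a). The protease inhibitor TFPI2 fell from 7.24 and 6.52 CPM to 3.76 and 3.64 CPM (log2 fold change −0.89, adjusted p = 0.00205). The matrix proteoglycan SPOCK3 rose from 0.724 and 1.06 CPM to 2.17 and 2.57 CPM (log2 fold change 1.41, adjusted p = 0.00338).

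Of 45 listed substrates, shed membrane proteins and matrix proteoglycans, 31 were tested, and 1 rose and 2 fell (9.68%, near the 6.07% of all genes), with a median log2 fold change of −0.0095. The adhesion molecule L1CAM, shed by ADAM10, fell from 64.9 and 59.0 CPM to 41.7 and 32.6 CPM (log2 fold change −0.74, edgeR adjusted p = 0.00160). ICAM1, an adhesion receptor for leukocyte integrins, fell from 34.2 and 33.05 CPM to 24.4 and 20.9 CPM (log2 fold change −0.57, edgeR adjusted p = 0.00390, and 0.0552 without siTLN1 library b). The small proteoglycan DCN (decorin) rose from 337 and 339 CPM to 471 and 442 CPM (log2 fold change 0.43, edgeR adjusted p = 0.0103, and 0.126 without siTLN1 library a).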

How the data were processed

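Polyadenylated RNA was sequenced from stranded libraries of 2 SCR and 2 siTLN1 samples, per the labels' protocols. The authors deposited raw counts per gene from featureCounts 2.0.0 (paired reads, no strand option, GENCODE 33), per the file headers; STAR 2.7.9a and GRCh38 are named in the submitters' processing notes. Reads shared by genes on opposite strands therefore cannot be assigned by strand. Exon lengths come from the same deposited table. The authors also deposited log2 CPM values for 16137 genes, and edgeR 3.34.1 stands in the submitters' processing notes. Those values, sorted within groups, equalled edgeR's scaled log2 CPM of the counts within 1e-06 for 100% of entries. Columns of the count table were mapped to groups only, since their numbers match no label.

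Counts were filtered (filterByExpr, minimum count 10, minimum total 15), scaled by TMM and fitted with edgeR 4.0.16 in R 4.3.3 (glmQLFit, robust, and glmQLFTest). P values were adjusted by Benjamini-Hochberg over all tested genes. The test gives no standard error. Each SE here is the absolute log2 fold change divided by the square root of the test's F value. The procedure was tested on simulated data. Total counts of 31854322 to 46353297 leave the number of libraries, not depth, as the limit for abundant members, since replicates differed by 13.7 and 18.5 times counting noise (chi-square per degree of freedom). An exact permutation test of 2 against 2 cannot go below p = 0.333, and the p values measure only the spread between these samples.

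Members, gene lists and sequence words were chosen with earlier results of these data known. Described in full are members that passed, TIMPs, the 4 members of each other family with the highest level per kilobase, and the 2 largest fold changes each way among the rest; the other members are given by name and briefly, and the values shown for some of them (such as ADAM10, ADAMTS3 and ADAMTS4) complete a subgroup and were picked after they were seen. Of both related lists at most 5 genes, by p, are given. For 1 gene of these lists the values are not reported here. Gene symbols came from a name table that matched 16085 of 16137 genes. Other settings tried were scaling by RLE or by totals alone, testing all genes or those averaging 10 counts, edgeR's legacy fit, DESeq2 1.42.0, limma-trend (limma 3.58.1) on the deposited log2 CPM values with and without a replicate block, and each library left out in turn. Where an arm then holds 1 library, it is assumed to vary like the other group.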

Additional observations from a re-analysis of the deposited data

Results flagged for a closer look

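Of the family genes, 26 without a pseudogene annotation have no row in the log2 CPM table and entered no comparison. Of these, 8 had 0 counts in every library and 21 had at most 5 counts in every library. In 4 of them both siTLN1 libraries had at least 3 counts and lay above both SCR libraries after scaling, which is why they are listed here. The opposite order was not searched for. Of all genes tested, 23.9% had both siTLN1 libraries above both SCR libraries. That share has no floor of 3 counts and covers only genes that passed the filter on low counts. The 4 of 26 therefore cannot be compared with it directly. ADAMTS18 had 2 and 2 raw counts in SCR and 13 and 8 in siTLN1. The stromelysin MMP10, in the chromosome 11 cluster, had 1 and 1 in SCR and 8 and 5 in siTLN1. ADAMTS13, the protease of von Willebrand factor, had 1 and 0 in SCR and 4 and 4 in siTLN1. The membrane-type MMP25 had 7 and 9 in SCR and 10 and 22 in siTLN1. These counts are raw and were not tested, and they were picked out of 26 genes for this order.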

How the results depend on the processing

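All 10 members that passed kept their direction in every setting run. The count of 10 (7 higher, 3 lower) was also 10 with RLE scaling, the legacy method and limma-trend without a block. It was 13 if only totals scaled the libraries (7.76% of all genes passed), 9 among 39 members averaging 10 counts (6.25%; ADAMTS5 lost, adjusted p = 0.0513) and 7 with DESeq2 (5.25%), which gave no adjusted p for 9 members. With no filter on low counts it was 5 (4 higher, 1 lower), among 32708 genes tested, of which 2.03% passed. With 1 library left out it ran from 2 to 10, with 1 to 8 higher and 1 to 2 lower, and the count over all genes ran from 347 to 1116 against 980. Both lowest counts came without siTLN1 library a; the cause was not tested. ADAMTS12 ran from −0.21 to 0.092 and MMP19 from −0.070 to 0.035 in these fits. The differences between replicates 1 and 2 of the labels correlated between groups at 0.19 across all genes. Across genes at 5 CPM or more the correlation was 0.54. Differences between libraries a and b gave the same 0.19 across all genes, so both numberings pair the same libraries. However, no label states a shared preparation, and 2 pairs cannot establish one. With the replicate block, 21 members passed (15 higher, 6 lower) among 3645 genes (22.6%), including all 10. The members gained were ADAM9, ADAM12, ADAM15, ADAMTS1, ADAMTS6, ADAMTS7, MMP2, MMP14, MMP16, TIMP2 and TIMP3. Depth limits members under 1 CPM, such as MMP3 and ADAM21, whose standard errors were 0.35 and 0.54 on the log2 scale.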
